A study of Rattus norvegicus with 14 samples.

Results

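Proteasome genes were examined in colonocytes (cells of the epithelium of the colon) of rats on 1 of 2 diets, normal-protein (NPD) and high-protein (HPD). The members were taken by gene symbol: every non-control probe whose name in the array design begins with Psm, a letter from a to g and a number. This gave 53 probes with 48 gene names, out of 30367 probes with 26276 gene names on the array. Of the 48 names, 47 belong to proteasome subunits, their activators, their inhibitor or their assembly factors, and 1, Psmc3ip, matches by its letters only, because it encodes a cofactor of meiotic recombination that was named after an interaction with Psmc3. Psma8, Psmg3 and Psme3ip1 were not matched to a probe by these names and were not analysed here. The animals of both groups were male Wistar rats, and the isocaloric diets, eaten freely for 15 days, supplied 14% (NPD) or 55% (HPD) of energy as protein, with whole milk protein in place of carbohydrate. Colonocytes were detached with EDTA from the colon without its last segment, so the preparation can hold each cell type of the epithelium and cells that lie within it. RNA of 7 NPD and 7 HPD rats on 1-colour Agilent arrays, 1 array per rat, was analysed.

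The proteasome is the barrel-shaped protease that destroys proteins tagged with ubiquitin. Its core is a stack of rings: outer rings of alpha subunits (Psma genes) gate the entry, and inner rings of beta subunits (Psmb genes) hold the active sites, which in the standard form lie in Psmb5, Psmb6 and Psmb7. A regulatory cap binds the ends of the core, with a ring of ATPases (Psmc genes) that unfolds substrates and non-ATPase subunits (Psmd genes) that bind and remove ubiquitin. Interferon induces Psmb8, Psmb9 and Psmb10, which take the places of the catalytic subunits and form the immunoproteasome, and the activator made of Psme1 and Psme2. Gut epithelium is known to express the immunoproteasome without infection. The comparison asks whether a diet that brings more protein to the colon came with other levels of these mRNAs.

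What an array reads for a gene is the short stretch that its probe matches. The probes of the standard catalytic subunits and of the immunoproteasome subunits Psmb8 and Psmb9 are given here, because the comparison of catalytic partners rests on them, each of 60 bases in capitals since the whole stretch is the probe. Positions are those of the array files on the rat build rn4. Psmb5 was read at chr15:32690134-32690193 on the minus strand, Psmb6 at chr10:57371368-57371427 on the plus strand, Psmb8 at chr20:4787980-4788039 on the minus strand and Psmb9 at chr20:4806341-4806400 on the plus strand. The Psmb7 probe lies on the minus strand within chr3:18413231-18433105, a span of 19875 bases, so it joins separate exons.
Psmb5 probe: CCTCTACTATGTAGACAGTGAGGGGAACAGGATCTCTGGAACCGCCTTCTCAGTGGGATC
Psmb6 probe: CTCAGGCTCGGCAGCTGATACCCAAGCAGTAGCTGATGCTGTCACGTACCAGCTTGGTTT
Psmb7 probe: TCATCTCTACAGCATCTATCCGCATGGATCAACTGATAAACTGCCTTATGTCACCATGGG
Psmb8 probe: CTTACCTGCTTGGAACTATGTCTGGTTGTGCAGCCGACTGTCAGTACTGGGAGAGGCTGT
Psmb9 probe: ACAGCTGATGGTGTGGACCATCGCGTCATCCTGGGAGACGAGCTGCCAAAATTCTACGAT

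The promoters of the members were read from RefSeq sequences on the build GRCr8, 300 bases a gene, 250 before and 50 after the transcript start of that table. By symbol 41 of the 47 proteasome genes matched. Of the letters searched on both strands, GGGCGG (Sp1 GC box) was in 29 of the 41 promoters, 70.7%, and in 34.9% of all 27457 promoters of the same length. The ETS core CCGGAAG was in 13 (31.7%, against 9.22% of all) and CCAAT in 20 (48.8%, against 37.7%). TGACNNNGC, the core of the antioxidant response element through which Nfe2l1 acts on proteasome genes, was in 8 (19.5%, against 12.2%), among them the Psmb5 and Psmb6 promoters. TTCNNNGAA, the gamma-activated site, was in 4 (9.76%, against 8.68%). TTTC, any 2 bases and TTTC again, the repeat of the interferon-stimulated response element, was in 7 (17.1%, against 3.77%). Matches of different motifs overlapped in 1 promoter for each of 3 pairs of motifs, in Psmb2 or Psme4, and never for the interferon letters. A match describes letters and no binding. Psmb8, Psmb10 and Psme2 are shown because they are the immunoproteasome and activator genes among these 7. The sequences run 5′ to 3′ from 100 bases before the start of the transcript in the table, the interferon letters on either strand are in capitals, and all 3 genes lie on the minus strand: Psmb8 at chr20:4657026-4657131, run on by 6 bases past the start to the end of the match, Psmb10 at chr19:50743293-50743392 and Psme2 at chr15:33052752-33052851.
Psmb8 promoter: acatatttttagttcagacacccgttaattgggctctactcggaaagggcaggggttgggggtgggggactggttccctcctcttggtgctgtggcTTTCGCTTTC
Psmb10 promoter: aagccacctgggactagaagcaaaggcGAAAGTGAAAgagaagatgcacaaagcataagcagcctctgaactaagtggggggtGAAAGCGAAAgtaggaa
Psme2 promoter: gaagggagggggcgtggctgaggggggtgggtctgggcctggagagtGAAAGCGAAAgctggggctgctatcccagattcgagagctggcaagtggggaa

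The number of probes well above background ran from 18094 to 20414 over the arrays. The HPD arrays were dimmer, with a median net signal of 141 ± 13.0 (SD, n = 7) against 179 ± 21.3 in the NPD group (SD, n = 7), a difference with an exact permutation p of 0.0035 (two-sided). The arrays lay on 2 slides, with 4 NPD and 3 HPD arrays on slide 1 and 3 NPD and 4 HPD arrays on slide 2. All 9 epithelial markers listed, such as Epcam and Krt8, were well above background on all 14 arrays. Of the 14 immune markers, 6 were, and Cd4 and Ms4a1 were on no array. The summed linear level of the immune list, in units of the array median, ran from 19.7 to 48.7 on the NPD arrays and from 22.0 to 28.9 on the HPD arrays, and that of the red blood cell list from 36.5 to 61.3 and from 46.2 to 152. Of the 8 goblet cell markers 5 were lower and 3 higher, with a median of -0.28, and 3 had an unadjusted limma p under 0.05: Agr2 at -0.63, Clca1 at -0.56 and Spink4 at 1.82. Top2a, a marker of cycling cells, was at -0.68. Of the 7 stem and cycling markers 4 were higher, among them Pcna at 0.07, Ccnb1 at 0.04 and Cdk1 at 0.14. Hba-a2, of red blood cells, was at 0.52. The limma adjusted p of Agr2, Clca1, Spink4, Top2a and Hba-a2 was between 0.417 and 0.429. In all, 11 of 58 markers had an unadjusted limma p under 0.05 (19.0%, against 11.4% of all probes). The others were Krt19 at -0.36, Myh11 at -0.48, Guca2a at 0.31, Itgam at 0.34, Col1a1 at 0.35 and Col3a1 at 0.61. The part of these cell types in the results was not tested. All values below are log2 signals relative to the array median (log2 levels) and differences of them, HPD minus NPD (log2 fold changes), for the brightest probe of each gene. They are levels in RNA of mixed cells, in which fewer cells of a type and less RNA per cell cannot be told apart.

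No proteasome gene passed the threshold. limma called 0 of 47 at an adjusted p below 0.1, against 0.056% of all probes, and the lowest adjusted p of a member was 0.417. The paper, also with limma and this threshold, lists far more genes as differing between the diets than this setting called. The absence of calls is therefore that of the setting used here. At an unadjusted limma p under 0.05 there were 11 members, 23.4% of them, against 11.4% of all probes. Of these 11, 10 were lower in the HPD group (5.55% of all probes were lower at that p) and 1 was higher (5.86% of all probes). In direction alone 23 members were lower and 24 higher, and 35.8% of all probes were lower. The median log2 fold change of the 47 was 0.0021, while that of all probes was 0.11. In no member did the 7 HPD values lie all above or all below the 7 NPD values, as they did in 0.273% of all probes. The members' median SD within a diet was 0.30 on the log2 scale, against 0.36 over all probes. All 47 members were well above background on all arrays, as were 17008 of all probes. Of these 17008, 1388 were lower and 877 higher at an unadjusted limma p under 0.05, 13.3% in all. In direction alone 42.0% of the 17008 were lower, and their median log2 fold change was 0.05. The diets did not overlap in 78 of them, and their median SD within a diet was 0.29. Against these probes the members' excess of lower genes at that p was smaller than against all probes. The 47 log2 fold changes ran from -0.74 for Psmb8 to 0.36 for Psmd11, and the levels of both diets overlapped in every one of them.

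**Figure D1:**
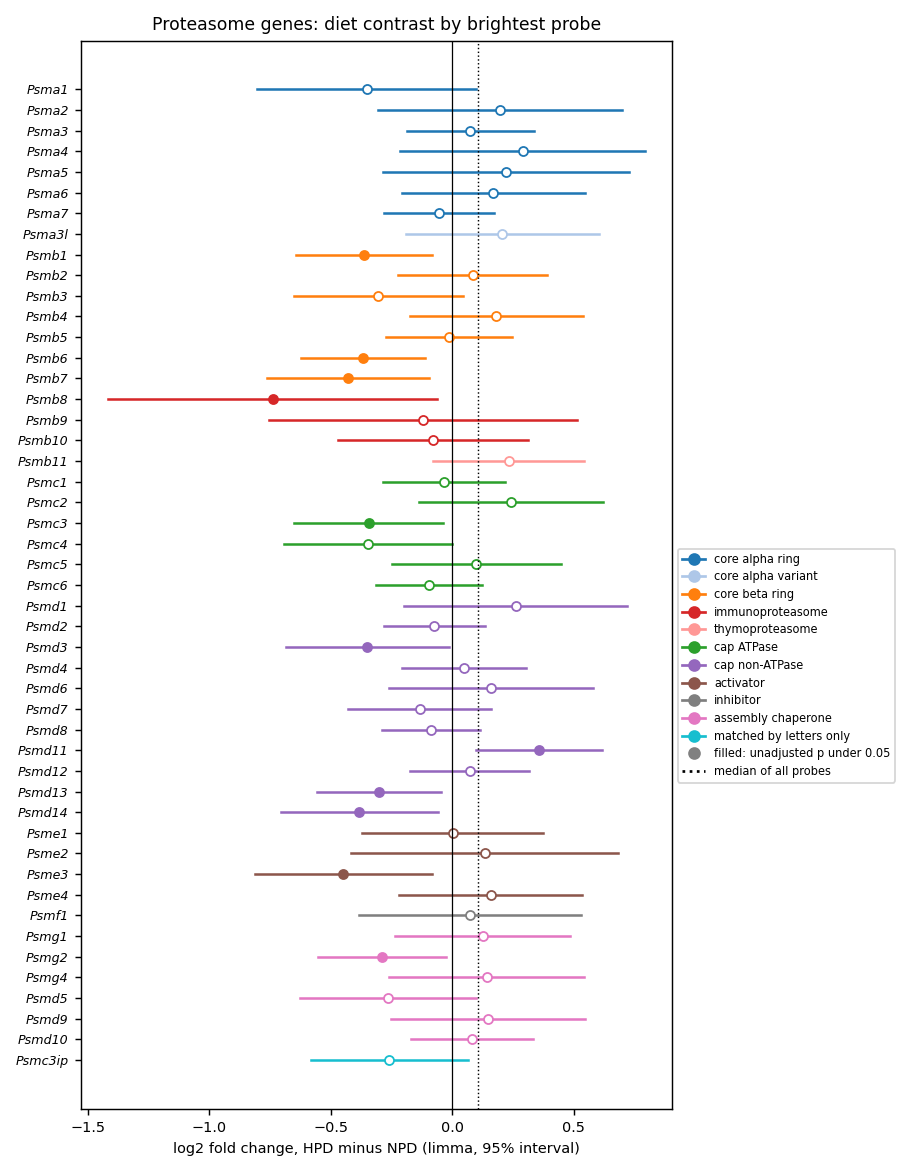
Log2 fold change (HPD minus NPD) of the brightest probe of each of the 48 matched genes with its 95% limma interval, coloured by role, with filled points for an unadjusted limma p under 0.05 and a dotted line at the median of all probes. Psmb8 lies lowest at -0.74 and Psmd11 highest at 0.36, and 10 of the 11 filled points lie to the left of 0.

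The beta ring held the larger part of the lower members of the core. Of its 7 genes 5 were lower and 3 of these had an unadjusted limma p under 0.05, and the median of their log2 fold changes was -0.30. Psmb6, the caspase-like active site, had log2 levels of 4.89, 4.99 and 5.12 on the NPD arrays (lowest, median and highest) and 4.18, 4.57 and 4.95 on the HPD arrays. The highest HPD value, of replicate 1, lay within the NPD range, the other HPD values below it, so that all 7 fell short of the NPD mean. The means were 4.99 ± 0.10 and 4.63 ± 0.25 (SD, n = 7 each), a log2 fold change of -0.37 with a 95% interval from -0.62 to -0.11 (limma adjusted p = 0.417). Psmb7, the trypsin-like active site, had 4.32, 4.63 and 4.88 on the NPD arrays and 3.78, 4.27 and 4.71 on the HPD arrays. Its ranges overlapped over several arrays, with HPD replicate 1 the only HPD array over the NPD mean. The log2 fold change was -0.43 with a 95% interval from -0.76 to -0.10 (limma adjusted p = 0.417), or 0.743 as a linear ratio.

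Psmb1, a beta subunit without an active site, had log2 levels of 5.71, 5.86 and 6.04 on the NPD arrays and 5.13, 5.44 and 6.05 on the HPD arrays. HPD replicate 1 was the highest of all 14 arrays for this gene, and the other 6 HPD arrays lay below the lowest NPD array. The log2 fold change was -0.36 (95% interval from -0.64 to -0.08, limma adjusted p = 0.417). Psmb3, another structural subunit, differed by -0.30 (limma adjusted p = 0.464). Psmb5, the chymotrypsin-like active site, had 6.65, 6.85 and 7.17 on the NPD arrays and 6.51, 6.84 and 7.14 on the HPD arrays. The ranges of Psmb5 nearly coincided, and its log2 fold change was -0.01 with a 95% interval from -0.27 to 0.25. The other beta subunits, Psmb2 and Psmb4, were higher by less than the spread between rats, and their sign, like that of Psmb5, turned under some of the 34 settings in which the gene-level values were computed, leaving out each array in turn included. Psmb1, Psmb3, Psmb6 and Psmb7 were lower in all 34. Their probes start at bases 268, 313, 245 and 459 of the transcripts, and those of Psmb5, Psmb2 and Psmb4 at bases 517, 589 and 706. Outside the beta ring the starts were not split in this way. They ran from base 335 (Psmg2) to 2836 (Psmd2) in the other proteasome genes lower in all 34 settings. In those higher in all 34 they ran from base 518 (Psma2) to 2993 (Psmd1). Transcript lengths were not taken into account, and the part of probe position in these differences was not tested.

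The immunoproteasome subunits were all lower in the HPD group, but their spread between rats was wide, with a median SD within a diet of 0.60. Psmb8 takes the place of Psmb5. It had log2 levels of 3.21, 4.23 and 4.50 on the NPD arrays and 2.29, 3.25 and 4.27 on the HPD arrays. Low and high values occurred in both diets, and HPD replicates 2 and 6 exceeded the NPD mean. The log2 fold change was -0.74 (95% interval from -1.42 to -0.06, limma adjusted p = 0.425), or 0.599 as a linear ratio. It was -0.86 among the arrays of slide 1 and -0.64 among those of slide 2. Psmb9, which takes the place of Psmb6, had 5.13, 5.60 and 6.58 on the NPD arrays and 4.81, 5.74 and 6.60 on the HPD arrays. Its log2 fold change was -0.12 with a 95% interval from -0.75 to 0.51, which leaves room for the difference seen in Psmb8. Psmb10, which takes the place of Psmb7, had 7.63, 7.94 and 8.54 on the NPD arrays and 7.46, 7.79 and 8.49 on the HPD arrays. Its log2 fold change was -0.08 (95% interval from -0.47 to 0.31). Without HPD replicate 1, HPD replicate 3 or NPD replicate 5 that of Psmb9 turned to between 0 and 0.02, and without NPD replicate 5 that of Psmb10 was 0.01.

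**Figure D2:**
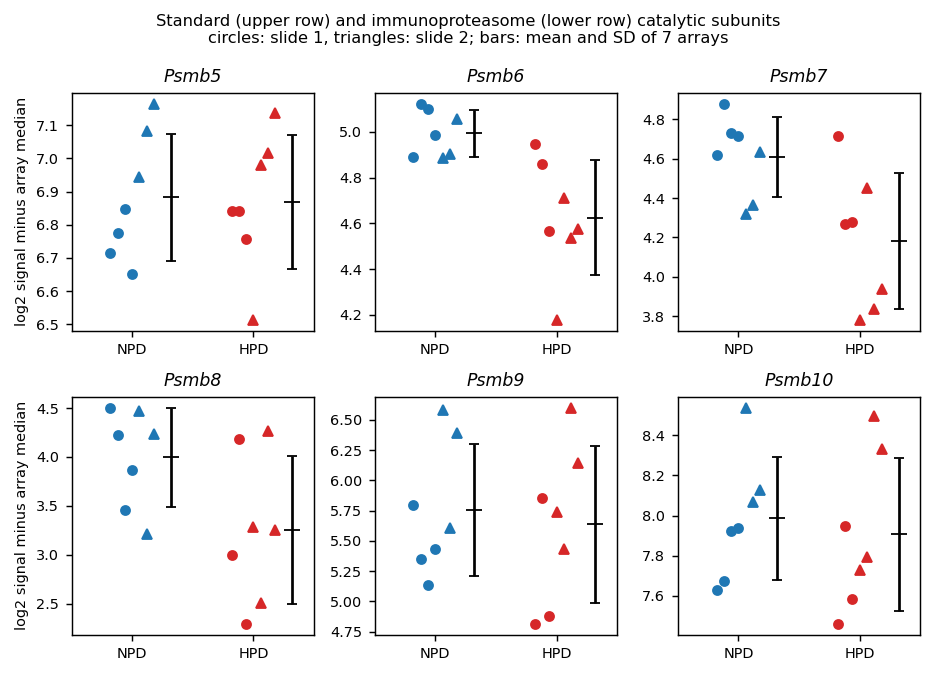
Signal on the log2 scale, relative to the array median, of the standard catalytic subunits Psmb5, Psmb6 and Psmb7 (upper row) and of Psmb8, Psmb9 and Psmb10 (lower row), 1 point per array, circles for slide 1 and triangles for slide 2, with mean and SD of the 7 arrays of each diet. The diets overlap in all 6 genes, and for Psmb9 and Psmb10 the spread within a diet is larger than the difference between the diets.

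Whether the diets differed in the balance of partners was tested by the difference between partner and standard subunit within each array. The zero point of such a difference depends on the probes, so only its change with diet was compared. In the transcripts the probes of Psmb8 and Psmb5 start at bases 381 and 517. Those of Psmb9 and Psmb6 start at bases 645 and 245, and those of Psmb10 and Psmb7 at bases 938 and 459. The part of probe position in the change with diet was not tested. Psmb8 minus Psmb5 ran from -3.87 to -2.21 on the NPD arrays and from -4.47 to -2.66 on the HPD arrays. HPD minus NPD was -0.73 (95% interval from -1.50 to 0.05), lower than the NPD mean in 5 of 7 HPD rats (exact two-sided permutation test over 3432 splits, p = 0.0688, and 0.206 after Benjamini-Hochberg adjustment over the 3 pairs). With the arrays regrouped within slides the exact permutation p was 0.0743. Leaving out HPD replicate 2, HPD replicate 6 or NPD replicate 6 brought the exact permutation p to 0.0332, 0.0367 or 0.0309, and the other 11 such tests gave up to 0.129. Psmb9 minus Psmb6 differed the other way, by 0.25 (95% interval from -0.56 to 1.06, exact permutation p = 0.504), as did Psmb10 minus Psmb7, by 0.35 (95% interval from -0.32 to 1.02, exact permutation p = 0.276). None of the 3 passed.

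The alpha ring had 5 of its 7 genes higher and 2 lower in the HPD group. The median of their log2 fold changes was 0.17, with none at an unadjusted limma p under 0.05. Psma1 stood apart at -0.35 (95% interval from -0.80 to 0.10, limma adjusted p = 0.495) and was lower in all 34 settings. Psma4, at 0.29 (95% interval from -0.21 to 0.80, limma adjusted p = 0.554), and Psma2, at 0.20, were higher in all 34. The other 4, Psma3, Psma5, Psma6 and Psma7, lay between -0.05 and 0.22 and changed sign in at least 1 setting, as did Psma3l, a name of the array design that RefSeq now lists as a synonym of Psma3. Psma3l was read by a probe of its own, at 0.21 against 0.08 for Psma3, and is counted here as a separate gene. The SD within a diet of the 7 alpha ring genes was large, with a median of 0.41. Their probes start between base 375 (Psma7) and base 1867 (Psma3), with Psma1 at base 634.

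In the cap, 10 of 17 subunits were lower and 7 higher, and the log2 fold changes had a median of -0.07. Of the 6 ATPases, which form the ring that pulls substrates into the core, 4 were lower and 1, Psmc3, had an unadjusted limma p under 0.05. Psmc3 had log2 levels of 5.54, 5.81 and 6.04 on the NPD arrays and 5.09, 5.35 and 6.05 on the HPD arrays. HPD replicate 1 was again the highest of the 14 arrays, and each other HPD array lay under the NPD mean. The log2 fold change was -0.34 (95% interval from -0.65 to -0.04, limma adjusted p = 0.418). Psmc4 differed by a similar -0.35 (95% interval from -0.69 to 0.0014, limma adjusted p = 0.439) and Psmc6 by -0.10. Psmc2 was the ATPase with the highest value, 0.24 (limma adjusted p = 0.517). These 4 kept their sign in all 34 settings, and Psmc1 and Psmc5 did not.

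Of the 11 non-ATPase subunits 6 were lower and 5 higher, and 4 had an unadjusted limma p under 0.05. Psmd14 is the deubiquitinase that removes ubiquitin chains at the entry of the core. It had log2 levels of 3.01, 3.55 and 3.71 on the NPD arrays and 2.79, 3.03 and 3.73 on the HPD arrays. NPD replicate 5 lay far below the other NPD arrays, and the log2 fold change of -0.38 (95% interval from -0.71 to -0.06, limma adjusted p = 0.417) was -0.46 without it. Psmd3, a scaffold of the lid, had 3.91, 4.28 and 4.45 on the NPD arrays and 3.36, 3.87 and 4.39 on the HPD arrays. Its log2 fold change was -0.35 (95% interval from -0.68 to -0.01, limma adjusted p = 0.43), and HPD replicate 1 was the exception in direction. Psmd13, also of the lid, had 4.21, 4.37 and 4.54 on the NPD arrays and 3.69, 4.05 and 4.52 on the HPD arrays. Its HPD arrays other than replicate 1 lay below the lowest NPD array, and the log2 fold change was -0.30 (95% interval from -0.55 to -0.05, limma adjusted p = 0.417).

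Psmd11, a lid subunit known for its part in assembling active proteasomes, was the 1 member with a higher level in the HPD group at an unadjusted limma p under 0.05. It had log2 levels of 2.29, 2.46 and 2.71 on the NPD arrays and 2.41, 2.94 and 3.04 on the HPD arrays. HPD replicate 1 was the lowest HPD array and the only one below the NPD mean. The log2 fold change was 0.36 (95% interval from 0.10 to 0.62, limma adjusted p = 0.417), or 1.28 as a linear ratio. Psmd1, a large subunit of the base, differed by 0.26 (limma adjusted p = 0.557), Psmd7 by -0.13, Psmd8 by -0.09 and Psmd2 by -0.07, each with 1 sign in all 34 settings. Psmd4, a ubiquitin receptor, Psmd6 and Psmd12 lay between 0.05 and 0.16 and changed sign in at least 1 setting.

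The activators differed in sign. Psme3, which forms the nuclear activator PA28 gamma, had log2 levels of 1.78, 2.28 and 2.57 on the NPD arrays and 1.39, 1.65 and 2.48 on the HPD arrays. It was below the NPD mean in 6 of 7 HPD rats, with replicate 1 the exception. The log2 fold change was -0.45 (95% interval from -0.81 to -0.08, limma adjusted p = 0.417), -0.45 among the arrays of slide 1 and -0.35 among those of slide 2. Psme1, of the interferon-induced activator PA28 alpha-beta, had 7.74, 7.94 and 8.36 on the NPD arrays and 7.48, 7.93 and 8.68 on the HPD arrays. Its log2 fold change was 0.0021 (95% interval from -0.37 to 0.38). Psme2, its partner, had 8.05, 8.35 and 9.16 on the NPD arrays and 7.87, 8.58 and 9.53 on the HPD arrays, a log2 fold change of 0.13 (95% interval from -0.42 to 0.68) whose sign turned under 6 of the 34 settings. For both partners HPD replicate 1 was the lowest and HPD replicate 6 the highest of the 14 arrays.

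Of the 6 assembly factors 4 were higher and 2 lower, and their median was 0.10 (log2 fold change). Psmg2, a chaperone of alpha ring assembly, had log2 levels of 2.17, 2.27 and 2.43 on the NPD arrays and 1.60, 2.12 and 2.26 on the HPD arrays. Each HPD value was under the mean of the NPD group, HPD replicates 4, 6 and 7 by the most, and the log2 fold change was -0.29 (95% interval from -0.55 to -0.03, limma adjusted p = 0.424). Psmd5, a chaperone of the base, differed by -0.27 (limma adjusted p = 0.515). Psmg1, Psmg4, Psmd9 and Psmd10 lay between 0.08 and 0.15, with signs that depended on the setting. Psmb11, the thymus-specific subunit, had a brightest probe that was well above background on all 14 arrays (log2 fold change 0.23, limma adjusted p = 0.507) and a second probe that was not well above background on any array. Psmc3ip, the gene matched by its letters only, differed by -0.26 (limma adjusted p = 0.488).

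Among members with several probes, the log2 fold change differed with the probe in some genes and was alike in others. For Psmf1, the proteasome inhibitor PI31, the brightest probe starts at base 1304 of the transcript and gave a log2 fold change of 0.07, and the probe at base 571 gave -0.52 (limma adjusted p = 0.868 and 0.422). For Psmd9 the brightest probe, at base 1301, gave 0.15 and the probe at base 982 gave -0.27 (limma adjusted p = 0.698 and 0.418). Psme4, the activator PA200, gave 0.16 and 0.17 from its 2 probes, and Psmg4 gave 0.14 and 0.10. Over the whole array, 1162 transcripts had probes at least 300 bases apart that were well above background throughout. In them the median log2 fold change was 0.10 for the downstream probe and -0.02 for the upstream probe, and the downstream probe had the higher value in 63.2%.

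This measure differed between arrays. The median over these transcripts of downstream minus upstream log2 signal averaged 2.20 ± 0.16 for NPD (SD, n = 7) and 2.37 ± 0.20 for HPD (SD, n = 7), with an exact permutation p of 0.103 over all arrays and 0.022 within slides. It was 2.01 on HPD replicate 1, the lowest of all 14 arrays, and 2.58 on HPD replicates 6 and 7, the highest. It ran from 2.03 to 2.16 on the NPD arrays of slide 1 and from 2.28 to 2.45 on those of slide 2. Single arrays held the extremes of many members. HPD replicate 1 was the highest HPD array in 15 of the 47 proteasome genes, and all 15 were lower in the HPD group. It was the lowest HPD array in 18, of which 16 were higher in the HPD group. HPD replicate 4 was the lowest HPD array in a further 17 genes, and HPD replicate 7 the highest in 18. Among the NPD arrays, replicate 1 was the lowest in 18 genes, of which 15 were higher in the HPD group, and replicate 5 the highest in 15. Over the 18 genes that were lower in every setting, chosen on these values, the median deviation from the NPD mean was 0.22 on HPD replicate 1 and between -0.69 and -0.18 on the other HPD arrays. Over the 6 genes that were higher in every setting it was -0.04 on HPD replicate 1, -0.03 on HPD replicate 3 and up to 0.73 on the others. The part of the probe position measure in the diet differences was not tested.

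**Figure D3:**
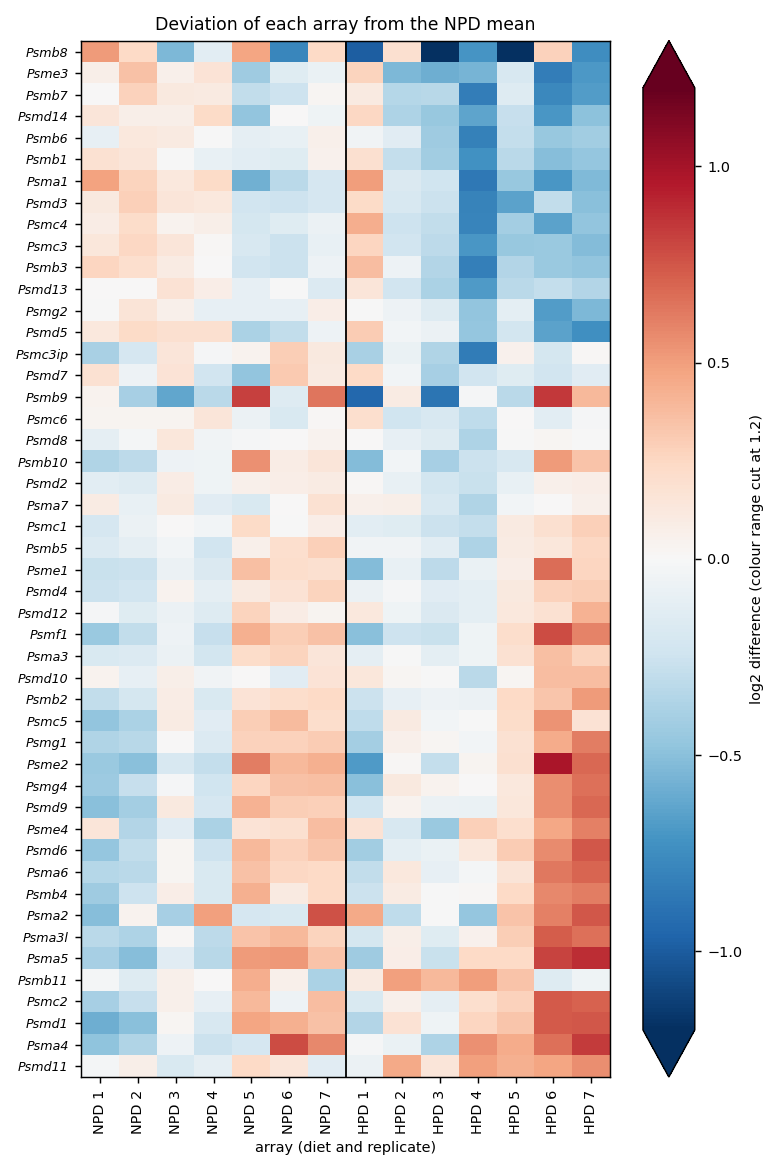
Deviation of each array from the NPD mean on the log2 scale for the 48 matched genes, ordered by log2 fold change, with blue for lower and red for higher and colours cut at 1.2. HPD replicate 1 is red where the other HPD arrays are blue in many of the genes from Psme3 to Psmd5, and HPD replicates 6 and 7 are the reddest among the genes in the lower part of the plot, where NPD replicates 5 to 7, the arrays of slide 2, are redder than NPD replicates 1 to 4.

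**Figure D4:**
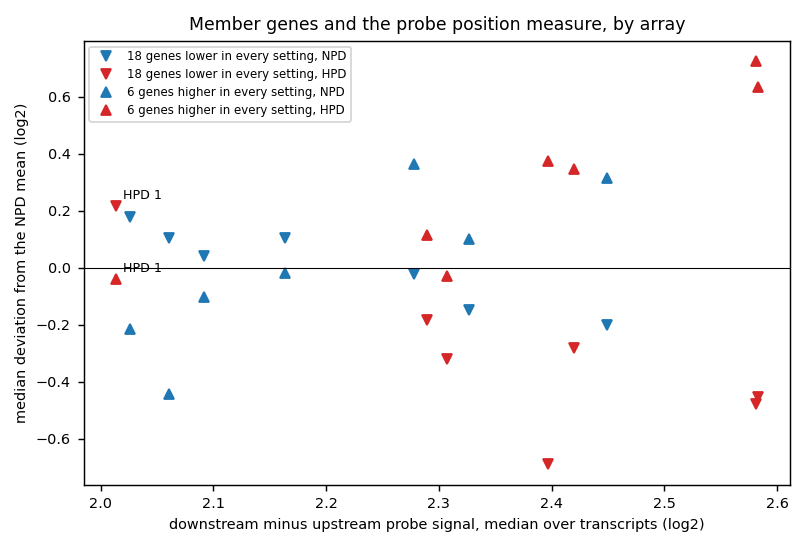
Median deviation from the NPD mean (log2) of the 18 genes that were lower and the 6 genes that were higher in every setting, for each of the 14 arrays, against the downstream minus upstream probe measure of the array (log2). Both sets were chosen on these values. HPD replicate 1 has the lowest measure, 2.01, and HPD replicates 6 and 7 the highest, 2.58.

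Without HPD replicate 1 the contrast was larger for several members. The groups then did not overlap in Psmb1, Psmb6, Psmc4 and Psmd13, where all 6 remaining HPD arrays lay below all NPD arrays, as groups did in 1.3% of all probes. Their log2 fold changes without it were -0.46, -0.42, -0.48 and -0.38, and the lowest adjusted p of a member was 0.108, so that limma still called 0 of 47. With HPD replicate 4 left out in its place, 6 members had an unadjusted limma p under 0.05, and with NPD replicate 2 or HPD replicate 6 left out 7 had, against 11 in all 14 arrays. The share of all probes at that p fell alongside, to 8.45%, 7.54% and 8.35%, from 11.4%, and without HPD replicate 1, where 14 members had such a p, it was 19.5%. HPD replicate 1 was kept in the reported values because its labels give no reason to leave it out.

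The number of calls depended on the setting. After normexp correction of the mean pixel signal, which also adds an offset of 50, limma called 14 of the 47 proteasome genes, all lower, against 16.9% of all probes. These were Psmb1, Psmb3, Psmb6, Psmb7, Psmb8, Psmc3, Psmc4, Psmd2, Psmd3, Psmd8, Psmd13, Psmd14, Psme3 and Psmg2. Slide as a block beside normexp brought the count to 17, among them Psmd11, the only 1 that was higher, against 27.9% of all probes, and centring over spots beside normexp gave 13, against 38.9%. In the deposited table of log2 values with slide as a block it called 11, all lower, against 10.5% of all gene names, and 10 of these were among the 14, the exception being Psmf1. In that fit the log2 fold change was -0.45 for Psmb6 (limma adjusted p = 0.0455) and -0.48 for Psmb7 (limma adjusted p = 0.0608). The deposited table without the block called 0 of 47, against 0.0681% of all gene names, with 18 at an unadjusted limma p under 0.05, as were 23.4% of all gene names. Quantile normalization, cyclic loess, the mean or median pixel signal and each other centring called none of the 47. The members' median log2 fold change was below that of all features in each of the settings plotted, and on its own it lay on either side of 0.

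**Figure D5:**
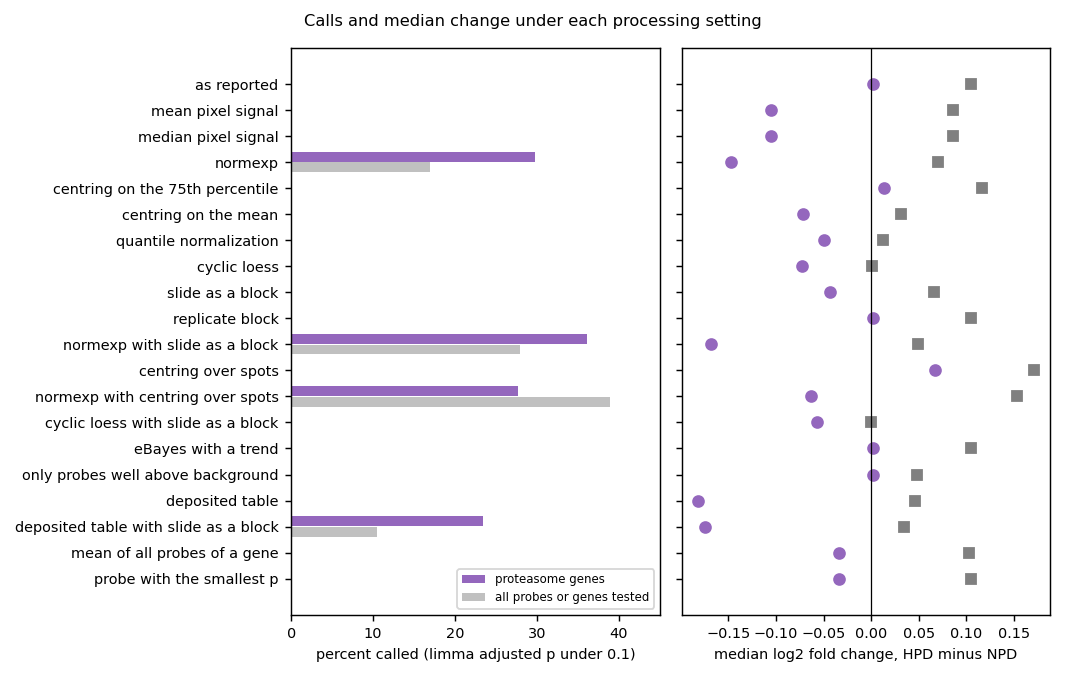
Percent called at a limma adjusted p below 0.1 among the 47 proteasome genes and among all features tested (left, bars), and their median log2 fold changes (right, circles for proteasome genes and squares for all features), for each processing setting that uses all 14 arrays. Members were called in 4 settings, with 3 of them after normexp correction, where 16.9% to 38.9% of all probes were called too.

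The rest of the ubiquitin pathway was taken from a list by role, of which 33 of 38 symbols were on the array, all well above background throughout. limma called 0 of the 33, with 24 higher and 9 lower and a median of 0.09 (log2 fold change). At an unadjusted p under 0.05 there was 1, against 11.4% of all probes and 13.3% of those well above background on all arrays. That 1 was Ubqln4, a shuttle that carries ubiquitinated proteins to the proteasome, at -0.32 (limma adjusted p = 0.417). Ubb, which encodes a chain of ubiquitin repeats, was at -0.06, and Rps27a, which encodes ubiquitin fused to a ribosomal protein, was at 0.16. Among the regulators of proteasome genes, Nfe2l1, the transcription factor that raises subunit genes when proteasome activity is short, was at 0.24 and exceeded its NPD mean on all 7 HPD arrays (limma adjusted p = 0.445). Foxo4, a forkhead transcription factor of the same group, had the lowest value of the list, -0.48, and was below its NPD mean on 6 of 7 HPD arrays (limma adjusted p = 0.446). Vcp, the segregase that extracts ubiquitinated proteins, was at -0.17 and fell short of its NPD mean on all 7 HPD arrays (limma adjusted p = 0.515). Pomp, the maturation factor of the core, was at 0.13.

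Of the genes that interferon induces with the immunoproteasome or that act with it in antigen presentation, 14 of 15 symbols were on the array and limma called 0. There were 6 lower and 8 higher, their median was 0.03 (log2 fold change), and 1 was at an unadjusted p under 0.05, where 35.8% of all probes were lower, 11.4% had such a p and 0.056% were called. It was Jak2, a kinase of the interferon receptor, at -0.55 (limma adjusted p = 0.425). Tap1, the peptide transporter, was at -0.35 and Tap2, its partner, at 0.0020, with limma adjusted p of 0.562 and 0.997. Irf1, a transcription factor of the interferon response, was at 0.05, and B2m, the light chain of MHC class I, was at 0.10. Ifng was not well above background on any array.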

How the data were processed

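The values are from 1-colour (Cy3) arrays of RNA of 14 rats, 7 per diet, and each array gave 62976 spots. According to the paper more rats were hybridised, and an array of each diet was left out as an outlier in principal component analysis. The 14 are the arrays that were kept. Per the labels, the authors scanned and extracted the images with Agilent Feature Extraction 10.7.3.1 and processed the values with limma. The deposited intensity values per spot are net signals from that software, and the deposited table holds the authors' log2 values per gene name, normalized by them. It gave an alternative only. Sequences of promoters came from RefSeq (GRCr8), and probe positions from the array files (rn4).

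The processed intensity was averaged over the spots of a probe on the log2 scale after leaving out control spots and 5539 outlier spot values, and each array was centred on its median over 30367 probes. A probe counted as well above background where most of its spots did. The diets were compared with lmFit and eBayes of limma 3.58.1 in R 4.3.3 over all probes, with Benjamini-Hochberg adjustment and calls at an adjusted p below 0.1. Gene values are those of the brightest probe, which was well above background on 14 arrays in all 48 genes. No member value was saturated, and 0 columns of other samples were used. Pairs of catalytic subunits and array measures were compared by exact two-sided permutation. The members and lists were chosen with earlier results of these data known. Named with values are members with an unadjusted p under 0.05, catalytic and immunoproteasome subunits, activators, genes with several probes and those with 1 sign in every setting.

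Tested on simulated data with 7 arrays per diet, the fit recovered 8% of probes changed by 0.4 on the log2 scale, 38% at 0.7, 70% at 1.0 and 88% at 2.0, over 30367 probes. It also called 10 probes that were not changed. The changed probes were drawn from all probes, with independent noise and no slide effect, so these shares are not those of the members. The number of arrays limits the precision, and with 1 array per rat the p-values measure the spread between these arrays. Alternatives covered the signal column, normexp correction with an offset of 50, centring, quantile and cyclic loess normalization, slide and replicate number as blocks, filters, probe choice, the deposited table and leaving out each array. Centring over spots, with and without normexp, and cyclic loess with the slide block were chosen after seeing the data. The gene lists are given by counts and medians with the values of some of their genes, and the other values are not reported here.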

Additional observations from a re-analysis of the deposited data

Results flagged for a closer look

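Psmd14 had an NPD array far from the others of its diet. The log2 level of NPD replicate 5 was 3.01, the next lowest NPD value was 3.43, and the gap between them was 0.599 of the range of the 7 NPD arrays, above the critical value of 0.568. This was 1 of 96 groups of 7 arrays examined, and chance alone marks about 1 in 20 such groups. Without that array the log2 fold change of Psmd14 was -0.46.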

How the results depend on the processing

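limma called 17 of all probes in the reported setting, 27 with slide as a block, 40 with cyclic loess and the slide block, 11 with the mean of all probes of a gene, 5142 with normexp, 8479 with normexp and the slide block, 11809 with normexp and centring over spots, and 2767 in the deposited table with the slide block. Proteasome genes called in the last 4 were 14, 17, 13 and 11, ubiquitin pathway genes 3, 4, 2 and 3, and class I partners 1, 3, 3 and 2, and none in the reported setting. Members with an unadjusted p under 0.05 numbered 18 with normexp, 20 with normexp and the slide block, 6 with centring over spots, 18 in the deposited table and 21 there with the slide block, where 33.7%, 36.6%, 13.6%, 23.4% and 26.9% of all features had such a p. Members that were lower numbered 41 with normexp and the slide block, 35 in the deposited table and 40 there with the slide block, and the members' median was -0.18 and -0.17 in the deposited table without and with the block. Equal replicate numbers were not taken as pairs in the reported setting. Correlations of same-numbered arrays ran from -0.17 to 0.67, with 6 of 7 over 0.1, and 1 of 7 NPD arrays correlated best with its own number. Whether equal numbers pair the arrays was not tested. With the replicate block 0 members were called, 13 had an unadjusted p under 0.05 (21.2% of all probes) and 8 probes were called in all.

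Leaving out each array in turn gave 0 members called throughout, 6 (without HPD replicate 4) to 14 (without HPD replicate 1) at an unadjusted p under 0.05, 20 to 26 lower, 0 to 4 genes without overlap, 9 to 151 probes called (151 without HPD replicate 1), and a members' median from -0.04 to 0.06. Psmb8 minus Psmb5 ran from -0.89 to -0.58, Psmb9 minus Psmb6 from 0.07 to 0.44 and Psmb10 minus Psmb7 from 0.19 to 0.51. The sign turned in Psmb5 (-0.0575 to 0.0461), Psmb9 (-0.28 to 0.0187), Psmb10 (-0.18 to 0.0123), Psme1 (-0.11 to 0.0897), Psme2 (-0.0070 to 0.27) and Psmf1 (-0.0443 to 0.17).

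Log2 fold changes that turned sign were, for Psme1, -0.10 with the mean pixel signal, -0.11 with the median pixel signal, -0.15 with normexp, -0.20 with normexp and the slide block, -0.0637 with normexp and centring over spots, -0.0715 with centring on the mean, -0.0930 with quantile normalization, -0.11 with cyclic loess, -0.12 with cyclic loess and the slide block, -0.0682 with the slide block, and -0.15 and -0.19 in the deposited table without and with the slide block. For Psme2 they were -0.0157 with normexp, -0.12 with normexp and the slide block, -0.0462 with cyclic loess and the slide block, and -0.0100 and -0.0942 in the deposited table without and with the slide block. For Psmf1 they were -0.0359 and -0.0499 with the mean and median pixel signal, -0.0762 with normexp, -0.15 with normexp and the slide block, -0.0341 with cyclic loess and the slide block, -0.0222 with the slide block, -0.33 and -0.31 in the deposited table without and with the slide block, -0.22 with the mean of its probes and -0.52 with its probe of smallest p. Psmd9 gave -0.0589 with normexp and the slide block, -0.18 in the deposited table with and without the slide block, -0.0604 with the mean of its probes and -0.27 with its probe of smallest p. Psmg4 gave -0.0075 with normexp, -0.0594 with normexp and the slide block, and -0.0366 and -0.0636 in the deposited table without and with the slide block. Psme4 gave -0.0396 with normexp and the slide block and -0.0181 in the deposited table with the slide block, and Psmb5 gave 0.0522 with centring over spots. Over the 34 members followed singly, 1043 of 1156 values kept direction and side of the threshold, 56 passed it and 57 turned sign, in 9 members. The causes were not tested. The brightest Psmb11 probe had mean log2 levels of 0.42 (NPD) and 0.65 (HPD), the lowest of the members, and its second probe was not well above background on any array. Differences near 0.4 were rarely recovered in simulation over probes drawn from the whole array. The SD within a diet of Psmb6 (0.10 and 0.25) and Psmd11 (0.16 and 0.23) was below the median of all probes, 0.36. Their own recovery was not simulated.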
